A study of Mus musculus with 7 samples.

Results

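The stefin A genes of the mouse and cystatin B were followed through neutrophils of healthy and inflamed compartments. The 7 genes were Stfa1, Stfa2, Stfa2l1, Stfa3, BC100530 and Gm5483, which lie in 1 cluster on chromosome 16, and Cstb on chromosome 10. They were chosen by gene family, and because a rise of members had been seen in arthritic blood, so that values from arthritic blood describe that choice and do not test it. All 7 were listed in all 7 count tables, which together hold a count for 16505 genes. Of 21763 deposited cells, 17607 met the rule for neutrophils, which was at least 3% of the molecules of a cell from S100a8 and S100a9 in healthy tissues and a granulocyte label in the study's table of cells in the inflammation experiment.

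Stefins are small cytosolic inhibitors of papain-like cysteine proteases, the cysteine cathepsins of the lysosome. They have no signal peptide, in contrast to cystatin C (Cst3), which is secreted. Cystatin B (Cstb) is expressed in most tissues, whereas the stefin A genes of the mouse form a cluster that expanded by duplication and are known from neutrophils and skin.

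Neutrophils were sorted as CD11b+ Ly6G+ PI-negative live cells, propidium iodide (PI) being a dye that enters dead cells. Healthy blood, bone marrow and spleen gave 1 library each in 2 runs, from untreated male C57BL/6J mice of 6 weeks in run 1 and 8 weeks in run 2. The inflammation experiment was 1 library of 5 conditions told apart by hashtag oligonucleotides, all from male mice of 8 weeks: healthy blood, blood and joint lavage on day 7 of K/BxN serum transfer arthritis (150 µl of serum on days 0 and 2), and lung and peritoneal lavage 3 h after 25 ng of IL-1β given into the nose or the peritoneum. Each library or condition was a pool of 3 mice, and within a run the same animals gave all 3 tissues. The serum donors were K/BxN mice, which carry the KRN T cell receptor transgene, and the recipients were wild type. Labels and methods name different joints, the femorotibial and the tibiotalar.

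All 15 neutrophil markers had counts in all 11 groups. Cells by the rule numbered 1135 to 3672 in a healthy library and 292 to 2857 in a condition, with medians of 775 to 2699 and 2527 to 3681 unique molecular identifiers (UMIs) per cell. A UMI marks 1 captured molecule. The groups summed to between 942688 UMIs (IL-1β peritoneum) and 10293966 UMIs (arthritic joint). Libraries shared 0 to 36 cell barcodes. Markers of B cells summed to 4.47 to 903 counts per 1000000 UMIs (CPM), the most in spleen of run 2, and those of erythroid cells to 30348 CPM in blood of run 2 and at most 912 CPM elsewhere. Keratinocyte and other epithelial markers reached at most 3.58 CPM.

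The 6 stefin A genes span 299 kb of GRCm38, chr16:36156811-36455392, in the order Stfa2l1, Gm5483, Stfa1, BC100530, Stfa2 and Stfa3. The first 3 are annotated on the plus strand and the last 3 on the minus strand. Cstb lies at chr10:78425669-78427622 on the plus strand. The stretches around the 6 stefin A start sites (100 bases before to 20 bases after the RefSeq start, GRCm38.p6) are shown because the members share a run of letters there, TTTAAAA, printed in capitals. RefSeq names Gm5483 Cstdc4 and BC100530 Cstdc5, the former matched by synonym and the latter by the position of its start.
Stfa2l1, chr16:36156711-36156830, plus strand: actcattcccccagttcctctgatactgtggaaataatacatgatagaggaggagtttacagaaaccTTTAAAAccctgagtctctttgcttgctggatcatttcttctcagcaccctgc
Gm5483, chr16:36184112-36184231, plus strand: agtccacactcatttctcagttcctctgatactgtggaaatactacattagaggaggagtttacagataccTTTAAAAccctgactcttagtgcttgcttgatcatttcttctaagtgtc
Stfa1, chr16:36277048-36277167, plus strand: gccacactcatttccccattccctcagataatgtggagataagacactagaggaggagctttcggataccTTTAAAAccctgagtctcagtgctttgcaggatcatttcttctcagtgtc
BC100530, chr16:36367551-36367670, minus strand: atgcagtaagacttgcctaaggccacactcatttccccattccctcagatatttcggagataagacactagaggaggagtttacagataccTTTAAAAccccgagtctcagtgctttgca
Stfa2, chr16:36408344-36408463, minus strand: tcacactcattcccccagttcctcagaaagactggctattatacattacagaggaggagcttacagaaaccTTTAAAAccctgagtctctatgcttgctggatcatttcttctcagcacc
Stfa3, chr16:36455373-36455492, minus strand: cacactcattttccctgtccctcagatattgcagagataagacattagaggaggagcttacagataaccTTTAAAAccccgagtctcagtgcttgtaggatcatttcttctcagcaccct

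The heptamer TTTAAAA was in the promoter window (250 bases before to 50 after the start) of 6 of 6 members and in 8.74% of 32851 RefSeq promoters, with both strands searched. In 5 members its first base lay 29 to 33 bases before the annotated start, and in BC100530 9 bases before it. The letters TTGCNNAA, read by C/EBP factors, were in 2 of 6 windows (Stfa1 and BC100530) and in 10.8% of all promoters. GAGGAAG, a core read by PU.1, was in 3 of 6 windows (Stfa1, BC100530 and Gm5483) against 13.6% of promoters, and TGANTCA, read by AP-1, in 1 of 6 (Stfa3) against 7.81%. The motifs were picked after these promoters had been read. The 6 windows are alike, with a median identity of 75.1% over 15 pairs (range 67.8% to 90.5%), so that they are not independent sequences.

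The likeness extends to the part of the transcript that 3′ libraries read. Over the last 300 bases of the transcripts, pairs of stefin A members were 60.3% to 98.7% identical (median 76.8%), the closest being Stfa1 and BC100530, whereas Cstb was 46.3% to 51.3% identical to them. Of the 205 windows of 96 bases (the stated read length) in each such end, 37.1% were shared with another gene in BC100530, 19.0% in Gm5483 (with 2010005H15Rik, a neighbour in the cluster) and 16.1% in Stfa1 (with BC100530). The share was 0.488% in Stfa2l1, 0.976% in Stfa2 and 0% in Stfa3 and Cstb. Levels of BC100530, Stfa1 and Gm5483 are therefore uncertain to the extent that reads from the shared windows were dropped or assigned to the copy.

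Gm5483 and Stfa2l1 carried most of the stefin A transcripts in every group. A UMI count takes each captured 3′ end once, so levels in CPM were compared between genes without division by length. Gm5483 stood at 1046 CPM and 1116 CPM in blood (runs 1 and 2), 350 CPM and 527 CPM in bone marrow, and 437 CPM and 784 CPM in spleen. Stfa2l1 stood at 752 CPM and 800 CPM in blood, 178 CPM and 224 CPM in bone marrow, and 326 CPM and 639 CPM in spleen. Both genes were highest in the 2 blood libraries. The spleen libraries of Stfa2l1 lay between those of marrow and blood, while for Gm5483 spleen of run 1 was below marrow of run 2.

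Stfa1 was a middle member, with 179 CPM and 181 CPM in blood, 125 CPM and 113 CPM in bone marrow, and 103 CPM and 150 CPM in spleen. BC100530 had 72.1 CPM and 59.2 CPM in blood, 33.9 CPM and 100.2 CPM in bone marrow, and 67.4 CPM and 63.4 CPM in spleen. Its bone marrow libraries bracketed all others. Stfa3 had 10.7 to 29.4 CPM in the healthy libraries, with blood (20.6 CPM and 12.4 CPM) below bone marrow (29.4 CPM and 24.7 CPM).

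Cstb had 282 CPM and 241 CPM in blood, 145 CPM and 122 CPM in bone marrow, and 167 CPM and 199 CPM in spleen. The 3 tissues did not overlap for Cstb. The stefin A genes together made up 0.0746% to 0.219% of the UMIs of a healthy library and 0.204% to 0.536% of those of a hashtag condition.

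Stfa2 separated the runs more than the tissues. It had 73.5 CPM, 28.7 CPM and 30.1 CPM in blood, bone marrow and spleen of run 1, and 17.2 CPM, 9.45 CPM and 9.71 CPM in run 2. Run 2 was lower by 2.03 (blood), 1.51 (marrow) and 1.54 (spleen) on the log2 scale, and 4.69%, 2.51% and 6.94% of genes with at least 20 UMIs fell as far as 1 log2 unit between the runs. Age, Cell Ranger version and run cannot be told apart here. Labels and methods disagree on reagent versions, so a difference of reagent between the runs cannot be told apart either. Where Stfa2 was found in run 1, Stfa2l1 was often found too, as given below.

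**Figure D1:**
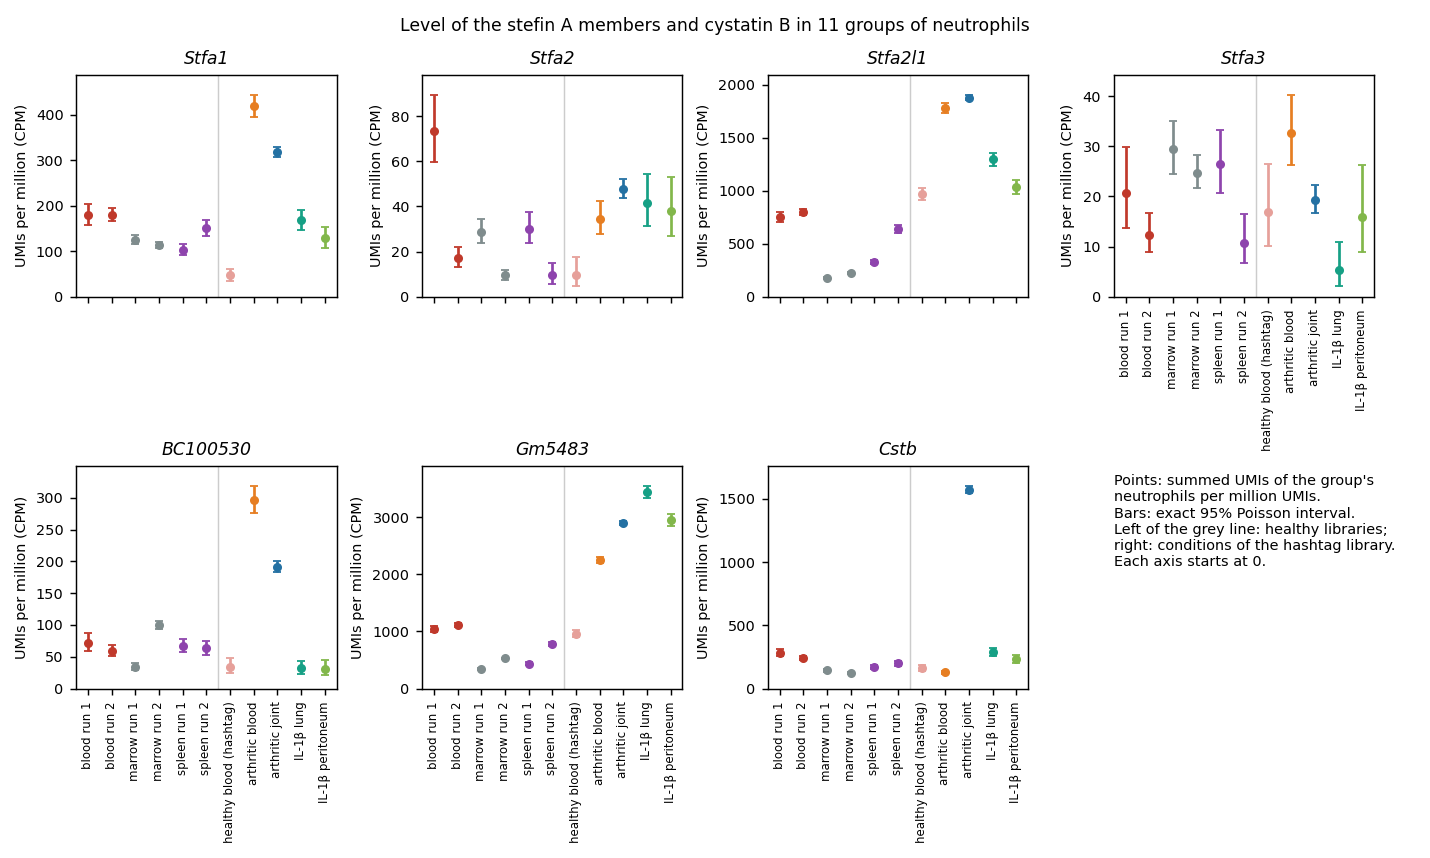
Level of the 6 stefin A genes and Cstb (CPM, each axis from 0) in the 6 healthy libraries, left of the grey line, and the 5 conditions of the hashtag library, with exact 95% Poisson intervals of the count. The scales differ between panels: Stfa3 stays under 33 CPM, Gm5483 reaches 3440 CPM in IL-1β lung, and Cstb reaches 1574 CPM in the arthritic joint.

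The first comparison asked whether the members differed between healthy tissues. In bone marrow against blood, 3 of 7 members were lower in marrow and none was higher, by edgeR's quasi-likelihood test on summed counts with the run as a block. Of all 7809 genes tested, 11.7% were called higher in blood and 9.94% higher in marrow. Fold changes from edgeR carry its TMM scaling of library totals, and CPM do not. The values can therefore differ, here and in the later tests. Stfa2l1 differed the most, with 201 ± 32.6 CPM in marrow against 776 ± 34.0 CPM in blood (SD, n = 2), and its log2 fold change was -1.67 (SE 0.23, edgeR adjusted p = 0.00512). Gm5483 had 439 ± 125 CPM against 1081 ± 49.5 CPM (log2 fold change -1.04, SE 0.24, edgeR adjusted p = 0.024).

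Cstb had 133 ± 15.9 CPM in marrow against 262 ± 29.2 CPM in blood (log2 fold change -0.69, SE 0.20, edgeR adjusted p = 0.0469). The other members did not pass, with log2 fold changes of -0.83 for Stfa2 (edgeR adjusted p = 0.0528), -0.31 for Stfa1 (0.297), 0.29 for BC100530 (0.709) and 1.07 for Stfa3 (0.0798). The median over the 7 members was -0.69 on the log2 scale, and the median over all genes tested was 0.02. The calls of Stfa2l1, Gm5483 and Cstb were each lost without the replicate block (edgeR adjusted p = 0.0766, 0.173 and 0.149) and when either blood library was left out (edgeR adjusted p of Stfa2l1 0.11 without run 1 and 0.0733 without run 2). Gm5483 was also lost without marrow of run 1 (0.22) and without cells of low quality (0.0526). Cstb was also lost without marrow of either run (0.315 each), with DESeq2 (0.0569), RLE size factors (0.0521), no filter on low counts (0.0682), S100a8 and S100a9 at 6% or more (0.0521) and without cells of low quality (0.108), and kept its call only when cells with 1% were let in or a spleen library was left out. Stfa3 passed as higher in marrow without marrow of run 1 (log2 fold change 1.56, edgeR adjusted p = 0.000605) without either spleen library and without cells of low quality (1.27, adjusted p = 0.0414), BC100530 without marrow of run 1 (1.16, adjusted p = 0.0188), and Stfa2 as lower without marrow of run 2 (-1.11, adjusted p = 0.0461), without either spleen library and with S100a8 and S100a9 at 1% (adjusted p = 0.0457) or 6% (0.0364).

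Spleen did not differ from blood or marrow in any of the 7 members by edgeR's test at this depth. Against blood, 4 genes of 7809 passed (0.0512%, all higher in blood), with 801 genes at an unadjusted p under 0.05 and 28 called by DESeq2, and the members' adjusted p ran from 0.403 to 0.925. Against marrow, 2.24% of genes were higher in spleen and 0.512% higher in marrow, and Stfa2l1 had a log2 fold change of 1.03 (SE 0.23) with an adjusted p of 0.0687 by edgeR and 0.00122 by DESeq2. Without spleen of run 1 Stfa2l1 passed by edgeR (1.15, adjusted p = 0.00623), and Stfa3 passed as lower in spleen without spleen of run 1 (-1.55, adjusted p = 0.0122) or marrow of run 1 (-1.32, adjusted p = 0.0198). The spleen libraries stood apart from each other, with Stfa2l1 at 326 CPM and 639 CPM and granule-high cells, as defined next, at 41.9% and 3.08% of cells.

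The second comparison followed the members along maturation. Neutrophils make the proteins of their secondary granules in the marrow and shut these genes off as they mature, so cells were split by the share of their UMIs from Camp, Ngp, Ltf, Lcn2 and Chil3: granule-high at 4% or more and granule-low under 1%. Granule-high cells made up 10.2% and 0.735% of blood cells, 56.1% and 38.5% of marrow cells and 41.9% and 3.08% of spleen cells in runs 1 and 2. The 5 genes were left out of the test, and the library was the block. Libraries of a run share mice, so that p-values over 6 libraries are too small.

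Of 7 members, 5 were lower in granule-high cells and none was higher. Among all 5470 genes tested, 24.7% were higher in granule-low and 21.2% higher in granule-high cells. The 6 libraries had 9.83 to 103 CPM of Gm5483 in granule-high cells and 911 to 1790 CPM in granule-low cells. The ranges did not overlap, and the log2 fold change of -4.68 (SE 0.27, edgeR adjusted p = 2.87e-09) was a 25.6-fold lower level. Stfa2l1 had 20.3 to 68.9 CPM against 660 to 1171 CPM, a 12.5-fold lower level (log2 fold change -3.64, SE 0.17, edgeR adjusted p = 3.79e-10).

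Stfa1 had 0 to 68.1 CPM in granule-high cells and 174 to 395 CPM in granule-low cells (log2 fold change -2.53, SE 0.25, edgeR adjusted p = 1.15e-06). Stfa2 was lower by 2.99 on the log2 scale (edgeR adjusted p = 3.21e-07), with no UMI in the granule-high cells of blood and spleen of run 2. Cstb had 88.5 to 123 CPM in granule-high and 165 to 338 CPM in granule-low cells. After TMM scaling its level was 1.69-fold lower (log2 fold change -0.75, SE 0.14, edgeR adjusted p = 0.000325).

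Stfa3 and BC100530 did not pass, with log2 fold changes of -0.31 (edgeR adjusted p = 0.525) and -1.19 (edgeR adjusted p = 0.169). For BC100530 the libraries disagreed. Marrow had 12.7 CPM and 31.9 CPM in granule-high cells against 142 CPM and 238 CPM in granule-low cells, while spleen had 70.0 CPM and 150 CPM against 36.9 CPM and 50.7 CPM. In the granule-high cells of spleen, 103 of 136 UMIs in run 1 and all 37 in run 2 sat in 1 cell. BC100530 passed when either spleen library was left out (log2 fold change -1.91, edgeR adjusted p = 0.031, without run 1, and -2.03, adjusted p = 0.0115, without run 2).

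**Figure D2:**
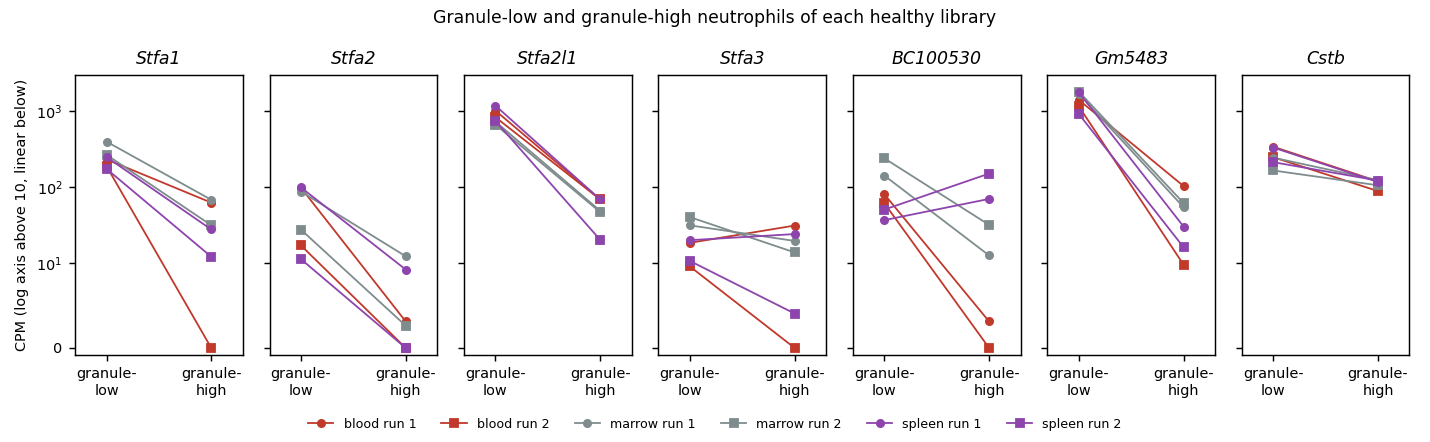
Level of each member (CPM, log axis above 10 and linear below) in granule-low and granule-high cells of the 6 healthy libraries, joined by library. For Gm5483 the 6 granule-high values end at 103 CPM and the 6 granule-low values begin at 911 CPM, while the BC100530 lines of the 2 spleen libraries rise.

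Since the share of granule-high cells differed between tissues, the tissues were compared again on granule-low cells only. There, of 7 members, 3 were higher in marrow than in blood and none was lower, against 5.15% of 6042 genes higher in marrow and 5.01% higher in blood. BC100530 had a log2 fold change of 1.78 (edgeR adjusted p = 0.00231). Without the 2 richest cells of each library it stood at 64.7 CPM and 198 CPM in marrow and 58.8 CPM and 52.6 CPM in blood, so that marrow of run 1 was close to blood. Passing too were Stfa3, with a log2 fold change of 1.89 (edgeR adjusted p = 0.0117), and Stfa1, with 0.94 (adjusted p = 0.0128). Without such cells Stfa1 stood at 247 CPM and 236 CPM in marrow and 202 CPM and 169 CPM in blood. Stfa3 then stood at 17.5 CPM and 30.8 CPM in marrow and 10.3 CPM and 7.82 CPM in blood. With all cells, Stfa3 had 18 UMIs in marrow and 18 UMIs in blood of run 1. Stfa2l1 stood at -0.08 (adjusted p = 0.876), Cstb at -0.22 (adjusted p = 0.554) and Gm5483 at 0.79 (adjusted p = 0.115), the sign of Stfa1, Stfa2 and Gm5483 being opposite to that over all cells.

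Marrow also stood above spleen in granule-low cells for the same 3 genes, with 4.17% of all genes higher in marrow and 4.39% higher in spleen. The spleen over marrow log2 fold changes were -2.46 for BC100530 (edgeR adjusted p = 0.000828), -1.78 for Stfa3 (adjusted p = 0.0252) and -0.96 for Stfa1 (adjusted p = 0.0142). Without the 2 richest cells of each library, Stfa3 had 16.8 CPM and 9.54 CPM in spleen, where marrow had 17.5 CPM and 30.8 CPM. No member passed between spleen and blood, where 0.0497% of genes were higher in spleen and 0.0828% higher in blood. In the contrasts over all cells, simulated 2-fold changes were found in 10% to 22% of cases and 4-fold changes in 63%, which limits what the absence of a call can say.

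**Figure D3:**
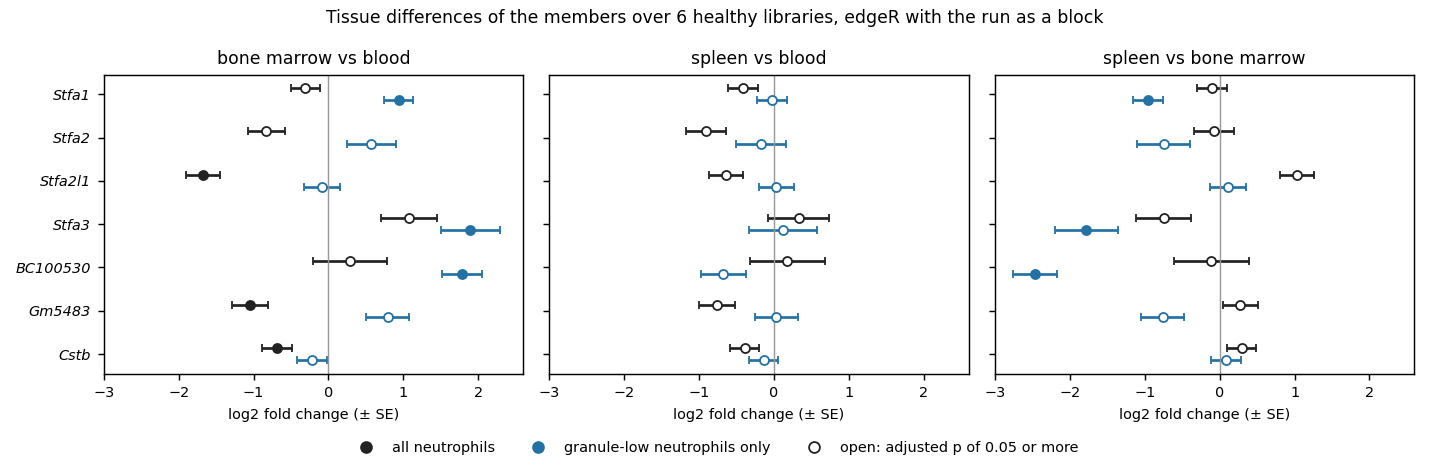
Log2 fold change between healthy tissues for each member with its standard error, over all cells (black) and over granule-low cells only (blue), with filled points for calls at an adjusted p under 0.05. Marrow against blood stands at -1.04 and 0.79 for Gm5483 and at -0.31 and 0.94 for Stfa1 in the 2 cell sets.

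The third comparison set the inflamed conditions against healthy blood of the same library. Each condition was 1 pool of mice, so there is no replicate check and no test, and intervals cover counting error only. Over all genes the median ratio to healthy blood was 0.771 in arthritic blood, 0.734 in the joint, 0.497 in IL-1β lung and 0.466 in IL-1β peritoneum, so that a ratio of 1 stands above the typical gene in each. Scaling by TMM factors, which counter this shift, raises all ratios of a condition alike. With it 22 of 26 ratios of members with enough UMIs were past 2-fold higher, against 15 without it. A change was counted past 2-fold in CPM with at least 20 UMIs in one of the groups.

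In the arthritic joint 5 of 7 members were past 2-fold higher and none was lower, where 10.9% of 7885 genes were higher and 24.3% lower. In arthritic blood, the contrast behind the choice of members, 4 of 7 were higher, none was lower, and 1.23% of 5760 genes were higher and 7.71% lower. The joint, lung and peritoneum were set against the same healthy pool, so their counts are not independent of that choice. In IL-1β lung and peritoneum 3 of 6 members with enough UMIs were higher in each (11.7% and 10.6% of genes), and none was lower (50.2% and 53.1%). The low members rested on few cells, in the control too. Stfa2 had 50 of 55 UMIs in lung, 28 of 36 in peritoneum and 5 of 11 in healthy blood in the 2 richest cells, and without these it stood at 3.78 CPM, 8.49 CPM and 5.33 CPM. Stfa1 had 89 of 121 UMIs in peritoneum and 29 of 53 in healthy blood in such cells, and stood at 33.9 CPM and 21.3 CPM without them.

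Gm5483 was past 2-fold in all 4 inflamed conditions. It rose from 959 CPM in healthy blood to 2252 CPM in arthritic blood, 2905 CPM in the joint, 3440 CPM in IL-1β lung and 2954 CPM in IL-1β peritoneum. The ratios were 2.35 (95% interval 2.20 to 2.51), 3.03 (2.85 to 3.22), 3.59 (3.36 to 3.84) and 3.08 (2.87 to 3.31). With cells thinned at random to 1000 UMIs, the ratio of Gm5483 in arthritic blood fell just under 2-fold. Stfa2l1, at 969 CPM in healthy blood, had 1781 CPM, 1879 CPM, 1298 CPM and 1033 CPM in the same order, with ratios of 1.84, 1.94, 1.34 and 1.07, none past 2-fold. All 4 of its ratios passed 2-fold with TMM scaling, at 2.53, 2.85, 2.50 and 2.01, and those in arthritic blood (2.30) and joint (2.42) did against the mean of blood in runs 1 and 2.

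Stfa1 and BC100530 had their highest levels in arthritic mice. Stfa1 had 47.1 CPM in healthy blood, 419 CPM in arthritic blood, 318 CPM in the joint, 168 CPM in IL-1β lung and 128 CPM in IL-1β peritoneum. BC100530 had 34.7 CPM in healthy blood, 297 CPM in arthritic blood and 191 CPM in the joint, but 31.8 CPM and 30.8 CPM in lung and peritoneum. The ratios of BC100530 were 8.56 (6.20 to 12.1) and 5.52 (4.03 to 7.79) in arthritis against 0.917 (0.579 to 1.46) and 0.887 (0.529 to 1.47) with IL-1β, the last 2 being 1.71 and 1.67 with TMM scaling. In healthy blood 30 of its 39 UMIs and in lung 33 of 42 sat in 2 cells. Without the 2 richest cells of each group it stood at 8.00 CPM in healthy blood, 216 CPM in arthritic blood, 172 CPM in the joint, 6.81 CPM in lung and 8.49 CPM in peritoneum.

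The size of the Stfa1 ratio depended on the healthy pool. Healthy blood of the hashtag library had 53 UMIs of Stfa1 in 12 of 509 cells, and its 47.1 CPM was below the 179 CPM and 181 CPM of blood in runs 1 and 2. Stfa1 in arthritic blood was 8.90 (6.75 to 12.0) times the hashtag pool and 2.33 times the mean of blood in runs 1 and 2, and in the joint 6.75 and 1.76 times. In IL-1β lung and peritoneum it was 3.57 and 2.72 times the former and 0.933 and 0.712 times the latter. Per the methods, the runs were made with another reagent version than the hashtag library.

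BC100530 stayed higher in arthritis against both controls (4.52 and 2.92 times blood of runs 1 and 2), as did Gm5483 in all 4 conditions (2.08, 2.69, 3.18 and 2.73 times). With IL-1β BC100530 was at 0.485 and 0.469 of blood of runs 1 and 2, past 2-fold lower. Stfa2 had 11 UMIs in healthy blood of the hashtag library (9.78 CPM) and 34.5 CPM, 47.8 CPM, 41.6 CPM and 38.2 CPM in arthritic blood, joint, lung and peritoneum. Its ratios of 3.53, 4.89, 4.26 and 3.91 became 0.761, 1.05, 0.917 and 0.842 against blood of runs 1 and 2, between which it differed by 2.03 on the log2 scale. Stfa3 had 16.9 CPM in healthy blood, 32.7 CPM in arthritic blood and 19.3 CPM in the joint (ratios 1.93 and 1.14), and 7 and 15 UMIs in lung and peritoneum.

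Cstb had 163 CPM in healthy blood, 127 CPM in arthritic blood, 288 CPM in IL-1β lung and 232 CPM in IL-1β peritoneum, and 1574 CPM in the joint. The joint was 9.68 (8.36 to 11.3) times healthy blood and 12.4 (11.1 to 13.8) times arthritic blood, both from the same library. The ratio in arthritic blood was 0.781 (0.650 to 0.939), 1.07 with TMM scaling and 0.485 against blood of runs 1 and 2, to which the joint stood at 6.02. Those in lung and peritoneum were 1.77 and 1.43, and 3.31 and 2.69 with TMM scaling. Blood of runs 1 and 2 had 282 CPM and 241 CPM of Cstb, so that lung was above both and peritoneum below both. The stefin A genes moved little between arthritic blood and joint, with joint over blood ratios of 0.592 (Stfa3) to 1.38 (Stfa2). Markers of monocytes and macrophages summed to 301 CPM in the joint, within the 269 to 1391 CPM of all groups, and their part in the Cstb level was not tested. Cstb had a UMI in 74.1% of the joint cells.

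**Figure D4:**
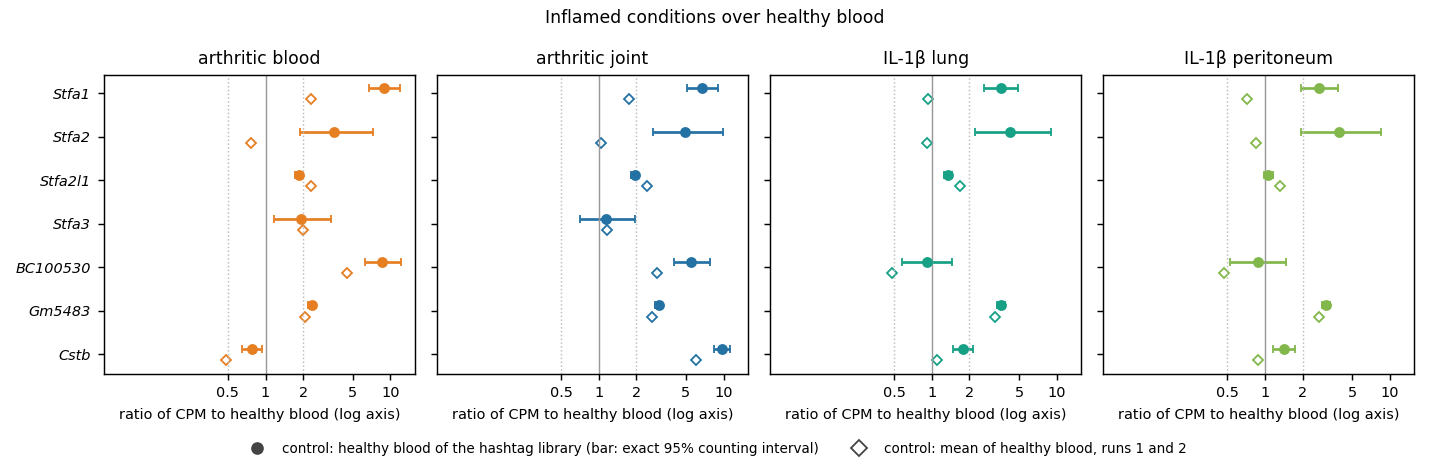
Ratio of each member's CPM (log axis) in the 4 inflamed conditions to healthy blood of the hashtag library (filled points, exact 95% counting interval) and to the mean of healthy blood in runs 1 and 2 (open diamonds). Against the hashtag pool Cstb stands at 9.68 in the joint and between 0.781 and 1.77 elsewhere, and the diamonds of Stfa1 and Stfa2 lie below their filled points in every condition.

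Stefin A transcripts were unevenly spread over cells. In arthritic blood 10.3% of cells had a UMI of Stfa1 (exact 95% interval 8.31% to 12.6%), against 2.36% (1.22% to 4.08%) in healthy blood of the library, and 34 of 814 cells with at least 10 UMIs held 1001 of its 1129 UMIs. In the joint 96 of 2857 cells held 2830 of 3272 UMIs, with up to 148 UMIs in a cell. The medians of these cells and of all cells were 3723 and 3580 UMIs in arthritic blood, and 3996 and 3531 UMIs in the joint. In IL-1β lung the 8 such cells were deeper, at 5065 against 3681 UMIs. For BC100530, 55 joint cells held 1663 of its 1971 UMIs, and its rich cells were deeper than the rest, at 4568 against 3531 UMIs in the joint and 4806 against 3580 UMIs in arthritic blood.

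To compare genes, cells were thinned to 500 UMIs (healthy tissues) or 1000 UMIs (hashtag library), and shallower cells were left out (26 in blood of run 1, and 155 in healthy blood, 140 in arthritic blood, 123 in the joint, 94 in lung and 61 in peritoneum). The mean UMI number of cells with a UMI was then divided by the value expected if the molecules fell on cells at random (Poisson). The quotient was 2.40 to 4.31 for Stfa1, 1.90 to 4.03 for BC100530, 2.07 to 3.32 for Gm5483 and 1.49 to 2.85 for Stfa2l1 over the groups with at least 50 thinned UMIs, while the median gene had 1.01 to 1.09. For Stfa1 in arthritic blood, 7.86% of thinned cells had a UMI where 33.9% were expected.

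Cstb was spread close to random in the 6 healthy libraries (1.02 to 1.06), in healthy blood of the hashtag library (1.08) and in arthritic blood (1.00), and less so in the joint (1.49), lung (1.27) and peritoneum (1.63). In the joint 537 cells with at least 10 UMIs held 10550 of 16203 UMIs of Cstb. After thinning, 54.3% of joint cells had Cstb against 15.8% in healthy blood and 10.2% in arthritic blood. Cells of another type gave a background share, whose source (free RNA, or doublets with neutrophils) was not tested. In 1523 B-cell-marked cells of spleen of run 2 (median 1458 UMIs), the share with a UMI was 0.263% for Stfa1, 2.30% for Stfa2l1, 1.58% for Gm5483 and 0.131% for BC100530, and 0 for Stfa2 and Stfa3 (0 of 1523 cells, which allows a share of up to 0.197%). Gene by gene these are below the shares in neutrophils of that library (median 775 UMIs), which were 3.78% for Stfa1, 25.6% for Stfa2l1, 20.7% for Gm5483, 1.69% for BC100530, 0.597% for Stfa2 and 0.995% for Stfa3. For Cstb, which most cells express, the share was 13.7% in B-cell-marked cells and 16.2% in neutrophils, and 5.06% and 10.1% after both were thinned to 500 UMIs.

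**Figure D5:**
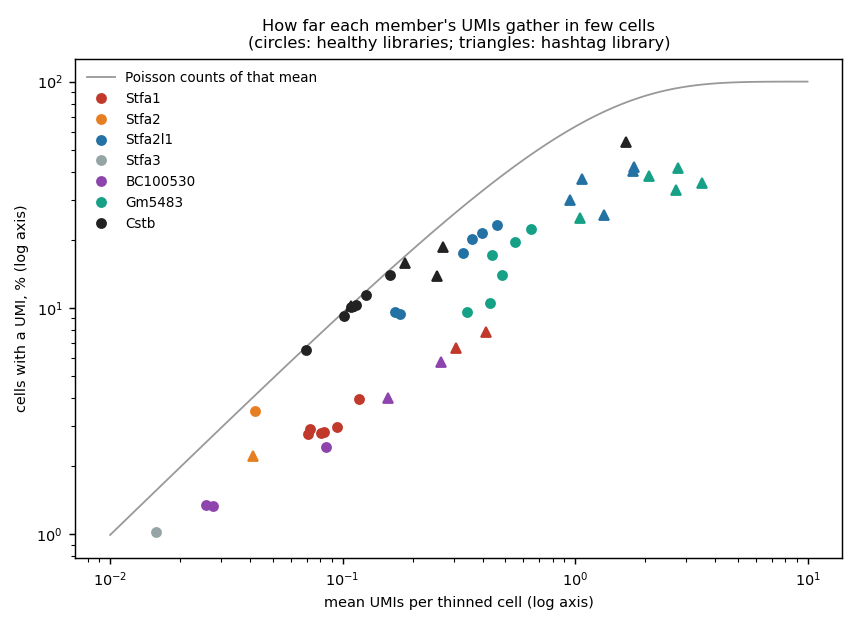
Share of thinned cells with a UMI (%, log axis) against the mean UMIs per thinned cell (log axis) for each member and each group with at least 50 thinned UMIs, circles for healthy libraries and triangles for the hashtag library, with the curve that Poisson counts would follow. Cstb of the healthy libraries lies on the curve, and Stfa1 in arthritic blood stands at 7.86% of cells where the curve has 33.9%.

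Stefin A members tended to occur in the same cells. Of thinned joint cells with Stfa2l1, 65.1% also had Gm5483, against 25.3% of cells without Stfa2l1 (Spearman's rho 0.46 over 2734 cells of 1 pool). In arthritic blood the shares were 56.4% and 25.5% (rho 0.38 over 674 cells). In the joint 20 cells had both Stfa2 and BC100530, where 2.45 would if the genes were unrelated, and 24 had both Stfa1 and BC100530, where 7.32 would. Stfa1 and BC100530 share read windows, and the cells come from 1 pool, so the correlations are descriptions. In blood of run 1, 44 of 45 thinned cells with Stfa2 had Stfa2l1, where 10.4 would if the genes were unrelated. In spleen and marrow of run 1 these were 20 of 25 (4.38 if unrelated) and 11 of 22 (2.08). In blood of run 2 they were 12 of 21 (4.50). Whether the Stfa2 counts of run 1 hold molecules of Stfa2l1 was not tested.

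Outside run 1 most cells rich in Stfa1 held no BC100530, despite the 98.7% identity of their ends. Over the 11 groups 227 cells had at least 10 UMIs of Stfa1, and 58 of them had any of BC100530. Of 129 cells with at least 10 UMIs of BC100530, 33 had any of Stfa1. Run 1 differed, with BC100530 in 4 of 5 Stfa1-rich cells of blood, 8 of 11 of marrow and 5 of 5 of spleen. The ratio of Stfa1 to BC100530 UMIs ran from 1.13 in bone marrow of run 2 to 5.29 in IL-1β lung. After thinning, 5.01% of joint cells had 3 stefin A members and 1.32% had 4 or more, against 0.565% each in healthy blood of the library. The rho of Cstb with the stefin A members in the joint was between -0.08 (Stfa2l1) and -0.0025 (Stfa2).

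Proteases were read from a list of cysteine cathepsins, the class that stefins bind, and legumain, which is of another class and is not known as a stefin target. In bone marrow against blood, 2 of 8 tested were lower in marrow (Ctss, log2 fold change -2.50, edgeR adjusted p = 0.00417, and Ctsz, -0.99, adjusted p = 0.0217) and none was higher, where 11.7% and 9.94% of all genes were. Their median was -0.60 on the log2 scale. In granule-high against granule-low cells 4 of 6 were lower and 1 higher, where 24.7% and 21.2% of all genes were: Ctss by -2.69, Ctsl by -2.15, Ctsc by -1.95 and Ctsz by -1.11, with Ctsh at 0.59. In the joint 5 of 8, legumain among them, were past 2-fold above healthy blood and 1 (Ctso) was below, where 10.9% and 24.3% of all genes were. Ctso had 20 UMIs against 6 UMIs in healthy blood, and the interval of its ratio (0.141 to 1.11) included 1. Ctsc, among those above, had 10 UMIs in healthy blood (ratio 2.09, 1.11 to 4.42). Ctsb, a lysosomal endopeptidase, went from 81.8 CPM to 801 CPM (ratio 9.80, 7.98 to 12.2) and Ctsl from 24.9 CPM to 232 CPM (9.31, 6.43 to 14.0), both close to the Cstb ratio of 9.68.

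Legumain (Lgmn), an asparaginyl endopeptidase, had 237 UMIs in the joint and 0 in healthy blood. In arthritic blood none of the 5 proteases with enough UMIs was past 2-fold either way. With IL-1β 2 of 5 were higher in each compartment (11.7% and 10.6% of all genes), Ctsb (2.18) and Ctsl (4.65) in lung and Ctsb (3.32) and Ctsz (3.03) in peritoneum. Within the joint, cells with more Cstb had more Ctsd (rho 0.38 over 2734 thinned cells), Ctsb (0.32) and Ctsz (0.24), while Ctsl and Ctss stood at -0.01 each. Ctsd, an aspartic protease outside the reach of stefins, stood at 2409 CPM in the joint (ratio 2.51, 2.36 to 2.67) and at 0.388 and 0.488 of healthy blood in lung and peritoneum, near the median gene (0.497 and 0.466).

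The other lists held the remaining rows of the stefin A cluster, other cystatins, and proteases outside the reach of stefins. Gm5416, a stefin A row of the cluster, was lower in marrow than in blood (log2 fold change -1.91, edgeR adjusted p = 0.0107) and in granule-high than in granule-low cells (-5.57), and had ratios of 2.75, 4.42, 2.75 and 3.16 in arthritic blood, joint, lung and peritoneum. These rest on 17 UMIs in healthy blood (15.1 CPM), where blood of runs 1 and 2 had 28.7 CPM and 20.1 CPM and the 4 conditions 41.6 CPM, 66.7 CPM, 41.6 CPM and 47.7 CPM. 2010005H15Rik had 3 UMIs in healthy blood, with ratios of 23.0 (7.83 to 112), 61.0 (20.6 to 298) and 14.7 (4.66 to 74.6) in joint, lung and peritoneum. It stood at 2.67 CPM in that healthy pool, at 27.9 CPM and 8.90 CPM in blood of runs 1 and 2, and at 61.3 CPM, 163 CPM and 39.2 CPM in the 3 conditions, so that the ratios depend on the pool. Part of its windows is shared with Gm5483. Of the cystatins only Cst3 was tested; it was lower in marrow (log2 fold change -1.27, edgeR adjusted p = 0.0119) and in granule-high cells (-1.39), and stood at 0.220 and 0.307 of healthy blood in lung and peritoneum. Ctsa, a serine carboxypeptidase, was lower in marrow than in blood (-2.67, edgeR adjusted p = 0.00226), and Ctsg of the primary granules had 78.6 CPM and 6.59 CPM in marrow and no UMI in the other 9 groups.

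Likeness of pattern was measured as Pearson's r of log2(CPM + 10) over the 11 groups, for 4716 genes with at least 500 UMIs, and is a description, since groups of a run or library share it. The summed stefin A members were most like Gm5416 (r = 0.965), Asprv1 (0.955), Slfn4 (0.954), Sepn1 (0.953) and Clec4d (0.953). Cstb was most like Rnh1 (0.949), Efhd2 (0.934), Ccl2 (0.925), Ctsb (0.924) and Slc3a2 (0.922). Of the members, Gm5483 (0.987) and Stfa2l1 (0.956), which make up most of the sum, followed it, and Stfa1 (0.567), Cstb (0.549), Stfa2 (0.46), BC100530 (0.30) and Stfa3 (-0.386) followed it less.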

How the data were processed

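Counts of UMIs for each gene and cell were deposited by the authors, who made them with Cell Ranger on mm10 and tagged the conditions of the inflammation library with hashtags. Per the methods, healthy libraries were made with version 2 reagents and the inflammation library with version 3, whereas labels name versions 1 to 3 and another sequencer. The run 1 tables list detected genes only, and other genes were taken as 0 there.

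Members and gene lists were chosen with earlier results of these data known. All 7 members were named in every comparison; of each other list, up to 4 called genes with the largest change and the most abundant gene; and the 5 genes most like the stefin A sum and Cstb. Cells by the rule were summed per library. Tissues and granule ranges were tested with edgeR 4.0.16 in R 4.3.3 (quasi-likelihood, TMM, filterByExpr, Benjamini-Hochberg adjusted p of 0.05) with run or library as block. The runs pair the tissues through shared mice, and deviations of a run correlated at 0.597, 0.55 and 0.631 over 7809 genes. Replicates were pools of 3 mice, and cells were never replicates. The range test was repeated with terms for tissue. DESeq2 1.42.0, other normalizations, filters, cell rules, ranges and leaving out each library were alternatives. The tests were tried on simulated counts: in marrow against blood 13% of 2-fold and 63% of 4-fold changes were recovered, and along the granule ranges 63% and 86%.

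Inflamed conditions were 1 pool each, so CPM were given with exact 95% Poisson intervals, and ratios with exact binomial-based ones, without a test. Cells of the library were those labelled granulocytes in the authors' table (4 cells left out). B-cell-marked cells had at least 3 UMIs of B cell markers and did not meet the S100 rule. No doublet caller was run and free RNA was not removed. Promoters came from RefSeq (GRCm38.p6) and gene positions and transcript ends from GENCODE. Identities were computed with Biopython 1.88. The Cstb promoter was not used here.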

Additional observations from a re-analysis of the deposited data

Results flagged for a closer look

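BC100530 was the member whose difference between granule-high and granule-low cells depended on the tissue, by an interaction term in edgeR's quasi-likelihood fit over 5470 genes. The high over low log2 difference was 1.74 in spleen and -4.38 in blood, a gap of 6.11 (edgeR adjusted p = 0.000515). Against bone marrow, where it was -2.99, the gap was 4.72 (edgeR adjusted p = 7.38e-08). This was the 1 gene called between spleen and blood, and 135 genes were called between spleen and marrow. The granule-high cells of spleen numbered 475 in run 1 and 62 in run 2, and 103 of 136 UMIs of BC100530 in the former and all 37 in the latter sat in 1 cell. Blood had 1 UMI and 0 UMIs in its 133 and 27 granule-high cells. Without the 2 richest cells of each group the direction in spleen turned, with 12.3 CPM and 0 CPM in granule-high cells against 25.1 CPM and 39.4 CPM in granule-low cells of runs 1 and 2. The interaction was not fitted again without them.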

How the results depend on the processing

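Over granule ranges the count of calls (2510) kept within 1931 to 2561 when 1 library was left out. The tissue counts moved more. Marrow against blood (1693 calls) gave 164 without the replicate block, 614 in granule-low cells and 0 to 2626 with 1 library left out. Spleen against blood (4 calls) gave 28 with DESeq2, 18 without the filter on low counts, 0 without the replicate block, 7 with S100a8 and S100a9 at 6% or more, 8 in granule-low cells and 0 to 245 with 1 library left out. Spleen against marrow (215 calls) gave 0 without the replicate block, 115 without low-quality cells, 517 in granule-low cells and 0 to 1250 with 1 library left out. The lowest counts came without a blood library, and the cause was not tested.

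In granule-low cells the sign turned in marrow against blood for Stfa1 (0.94), Stfa2 (0.57) and Gm5483 (0.79), in spleen against blood for Stfa2l1 (0.030), BC100530 (-0.68) and Gm5483 (0.029), and in spleen against marrow for Gm5483 (-0.76), all log2. Without the replicate block it turned for Stfa2 in spleen against marrow (0.053) and Stfa3 along the granule range (0.093), and the block changed no call other than those of Stfa2l1, Gm5483 and Cstb given above. Leaving out 1 library turned BC100530 in marrow against blood (-0.92 to 1.16, with -0.13 without blood of run 2), in spleen against blood (-0.55 to 0.80, with -0.17 without blood of run 2) and in spleen against marrow (-1.04 to 1.04, with 0.55 without spleen of run 2), Stfa3 in spleen against blood (-0.49 to 0.93) and along the range (-0.64 to 0.35), and Stfa2 in spleen against marrow (-0.40 to 0.18, with 0.03 without spleen of run 2). BC100530 along the range also passed without the filter on low counts (edgeR adjusted p = 2.68e-06).

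With blood of runs 1 and 2 as control, ratios fell under 1 for Stfa1 in lung (0.933) and peritoneum (0.712) and for Stfa2 in arthritic blood (0.761), lung (0.917) and peritoneum (0.842). Cstb in peritoneum also fell below that control, at 232 CPM against a mean of 262 CPM. Of 26 member ratios, 15 were past 2-fold higher and 0 lower. With blood of runs 1 and 2 as control 10 were higher and 3 lower (13 in all), and under the other 6 alternatives 14 to 22 were higher and 0 lower. With 2 libraries per tissue the tests recovered few 2-fold changes, and with 1 pool per inflamed condition no spread between mice was measured.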
